A study of Mus musculus with 7 samples.

Results

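The comparison described here sets induced hepatocyte-like (iHep) cells against the mouse embryonic fibroblasts (MEF) from which they were derived. Its members are 6 of the 7 arrays of the series, chosen by their labels. They are 3 iHep arrays, labelled 4α1, 4α2 and 4α3 and called iHep 1, 2 and 3 here, and 3 arrays of fibroblasts prepared from embryos at 13.5 days post coitum. The seventh array holds hepatocytes from adult mouse liver and is set beside the comparison only for what is also detected there, although it enters the filter and the fit. All cells had a C57BL/6 background, no sex is given in the labels, and each array is 1-colour, with Cy3-labelled RNA. The iHep arrays are 3 types of cells with 1 array each, so their spread is the spread between types, and so few arrays limit how precise any value is. The meaning of the last digit of the iHep labels is not stated in the labels. The study is known to have added Hnf4a together with 1 Foxa factor to fibroblasts, and whether a probe reads the added transcript as well as the cell's own is not given either.

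Embryonic fibroblasts are mesenchymal cells. They are loosely attached, build and remodel the collagen matrix around them, contract with smooth muscle type actin, and exchange growth factor signals with neighbouring tissues. Hepatocytes are epithelial cells. They hold together through E-cadherin and tight junctions, carry microvilli on an apical surface, secrete most plasma proteins and modify drugs and toxins, under the control of nuclear receptors such as HNF4α.

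Levels are given as log2 of the processed signal minus that of the 75th percentile of the array, which is therefore 0, and changes are iHep minus MEF ± SE on the log2 scale. The 75th percentile of signal lay between 714.2 and 1483.6 on the 6 arrays, and the scanner marked 60.2% to 68.7% of probes as well above background, which is called detected here. MEF 2 and MEF 3 differed by less than repeated spots of 1 array do (0.49 to 0.89 times that noise, against 3.74 to 4.49 times for MEF 1 and MEF 2) and were averaged and counted as 1 sample, which gives n = 3 for iHep and n = 2 for MEF. The iHep arrays share slide 1 with MEF 1, while MEF 2 and MEF 3 lie on slide 2, so values within slide 1 are given beside list medians. Of 27583 genes and unnamed probes, 19133 were detected on every array of at least 1 group and were tested with limma, with Benjamini-Hochberg adjustment over all of them. The labels do not say that replicates came from separate cultures, so the spread behind the p-values may be technical in part. The genes named were chosen by a rule given with the methods, and Afp, Cp, Fga, Fgg, Esrp1, Esrp2, Muc13, Met, Hgf, Oas1a, H2-T23, Ifih1, Vim, Hmgcs1, Srebf1 and Srebf2 were added after their values were seen.

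iHep cells differed from MEF across a large share of the array. At an adjusted p under 0.05, 1924 genes rose (10.1% of those tested) and 2534 fell (13.2%), together 4458 genes (23.3%), while the median change of all tested genes was -0.04. Detection was gained and lost outright for some of them. On all 3 iHep arrays and no MEF array, 303 genes were detected, and 272 of these were called higher. In the other direction 552 genes were detected on all 3 MEF arrays and no iHep array, and 490 of these were called lower. The gained genes were detected on the adult hepatocyte array in 181 cases (59.7%) and were not in 122. Of the lost genes 189 (34.2%) were detected there. For all tested genes the share was 89.8%, but a gene could enter the tested set by detection on the hepatocyte array alone. For genes called higher it was 87.7%, and for genes called lower 71.6%. Of 7456 genes detected on none of the 6 arrays, 882 (11.8%) were detected on the hepatocyte array. These shares were not compared by a test. Levels of undetected genes are set by background, so fitted changes of such genes are not bounds, including those printed without a fold. A fold, where printed, is given as at least a value if 1 side was not detected. On every iHep array 4767 genes (24.9% of those tested) lay above every MEF array, and 5991 (31.3%) lay below every MEF array.

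**Figure D1:**
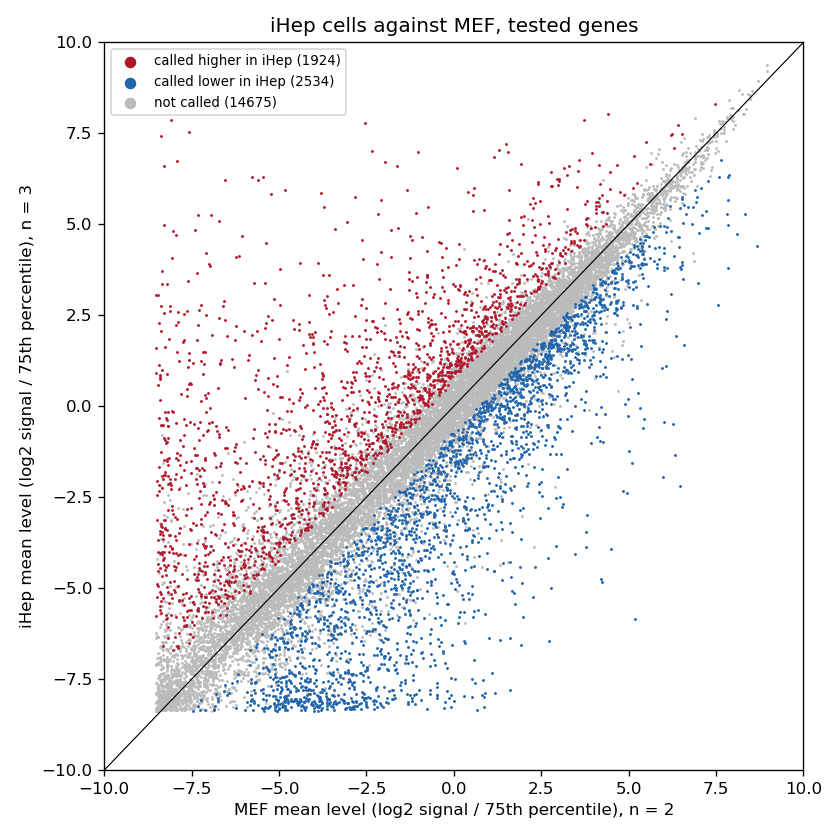
Mean level in iHep cells (vertical, n = 3 arrays) against mean level in MEF (horizontal, n = 2 samples) for the 19133 tested genes, both on a log2 scale with the 75th percentile of the array at 0. The 1924 genes called higher lie above the diagonal and the 2534 called lower lie below it. Genes not detected in 1 group lie toward the left and lower edges, and these include the 303 and 552 genes detected in 1 group only.

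The counts of calls depended on which MEF arrays entered. With 3 separate MEF samples 3158 genes were called higher and 4148 lower. With the slide as a block, which leaves MEF 1 to set the contrast, 752 were called higher and 916 lower. Leaving out MEF 1 gave 682 and 956, and leaving out iHep 1 gave 1213 and 1655. Direction was steadier, as each of the 4458 called genes kept its sign under all of these settings. Beside the median of a gene list stand its value within slide 1 and its range over all 15 alternatives, which also changed the normalization, background, filter and probe choice. Each count of list members is to be read against the shares of all tested genes, 10.1% higher and 13.2% lower. Named genes whose call was lost in any of them are listed with their group. Such losses ranged from 1 alternative to 11 of the 15 for Trp63, 9 for Chad, 8 for Atf5 and 7 each for Lyve1 and Trib3.

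The types shared the gained genes only in part. Of 1085 genes detected on no MEF array and on at least 1 iHep array, 303 were detected in all 3 types, 189 in a pair of types and 593 in 1 type alone. iHep 1, 2 and 3 held 529, 707 and 644 of them. The share also detected in adult hepatocytes was 59.7% for genes gained by all 3 types, 52.4% for those gained by a pair and 26.5% for those gained by 1 type. These shares are over all measured genes, tested or not. Of tested genes, which could enter by detection on the hepatocyte array alone, 89.8% were detected there. Of genes detected on none of the 6 arrays the share was 11.8%. Among genes detected on every MEF array, 972, 777 and 908 were not detected in iHep 1, 2 and 3. With 1 array per type, differences between types have no test.

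Hnf4a, the nuclear receptor that was added, stood at -0.55, -2.59 and 1.56 on the iHep arrays, against -7.81, -8.96 and -8.71 on the MEF arrays at its brightest probe. All 3 iHep arrays lay above all MEF arrays, and the gene rose by 7.80 ± 1.24 (at least 51.8-fold higher, adjusted p = 0.0139). Its other probes also lay higher in iHep cells. The second had -0.43, -0.24 and -2.09 on the iHep arrays, against -7.77, -8.99 and -8.71 on the MEF arrays. The third had -4.91, -5.37 and -3.15 on the iHep arrays, against -6.87, -5.56 and -5.80 on the MEF arrays, and was detected on MEF 2 and MEF 3. iHep 3 was the highest type at the brightest and the third probe and the lowest at the second. The pioneer factor gene Foxa1 stood at -3.06, -8.13 and -8.15 on the iHep arrays, against -7.62, -7.05 and -6.74 on the MEF arrays, and was detected in iHep 1 alone. Foxa2 stood at -0.94, -7.78 and -8.30 on the iHep arrays, against -6.21, -3.91 and -4.09 on the MEF arrays, and was detected in iHep 1, MEF 2 and MEF 3. Foxa3 was detected on none of the 6 arrays. None of the 3 Foxa genes was called. Of 27 tested liver transcription factors 6 rose and 2 fell (median change 0.59, 0.56 within slide 1, 0.29 to 1.20 over the alternatives). Nr1i2, the receptor PXR that senses foreign compounds, stood at -0.94, -0.26 and 1.61 on the iHep arrays, against -7.77, -6.49 and -6.89 on the MEF arrays, and rose by 7.37 ± 0.84. Nr2f1, an orphan nuclear receptor of mesenchyme and nerve, stood at -7.95, -6.13 and -6.64 on the iHep arrays, against -4.03, -2.90 and -2.97 on the MEF arrays, and fell (at least 5.94-fold lower), as did the stress factor gene Atf5 (-2.16 ± 0.53). Cebpb, a factor of liver and fat, was not called (0.13 ± 0.37). Calls that ended under at least 1 alternative were those of Atf5, Hnf4a and Nr2f1 (adjusted p up to 0.196).

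Genes for carriers that hepatocytes release into plasma were called higher in part, and none was called lower. Of 24 tested plasma carriers 12 rose and none fell (median change 3.86, 3.88 within slide 1, 2.23 to 5.57 over the alternatives). Between 5 and 13 were called higher over the alternatives. Ahsg, which encodes fetuin-A, stood at 8.02, 8.31 and 5.97 on the iHep arrays, against -7.87, -9.03 and -8.80 on the MEF arrays (at least 12870-fold higher). Alb, serum albumin, stood at 6.46, 7.92 and -0.21 on the iHep arrays, against -7.92, -8.32 and -7.63 on the MEF arrays. The iHep arrays were all above the MEF arrays but iHep 3 was far below the other types. The change of 12.67 ± 2.50 (at least 1965-fold higher) had an adjusted p of 0.0246. Cp (ceruloplasmin), a copper carrier, rose by 7.28 ± 0.36, and Afp, which encodes alpha-fetoprotein, by 7.71 ± 1.63. Rbp4, the carrier of retinol, was not called (2.50 ± 1.0). Ttr, transthyretin, a carrier of thyroid hormone, rose by 6.03 ± 1.02. Summed over the list, signal was 241 to 1370 times the 75th percentile in iHep cells and 4.59 to 7.5 times in MEF. At least 1 alternative ended the calls of Afp, Alb and Ttr (adjusted p up to 0.158).

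Promoters are shown for 2 genes called higher that hold a word of HNF4 binding sites, CAAAGTCCA. The word was chosen because Hnf4a was added, and was searched on both strands from 250 bases before to 50 after the gene's start. RefSeq sequences of that window in GRCm38.p6 were matched by symbol to 12401 of the 19133 tested genes. The word lay in 13 of 1199 promoters of genes called higher (1.08%) and in 4 of 1795 of those called lower (0.223%), without a test. Among tested genes it lay in 77 of 12401 promoters (0.621%), and in 0.555% of all promoters of that table. It lay in 0 of 18 promoters of plasma carriers, 0 of 13 of lipoprotein genes, 0 of 17 of clotting genes and 0 of 20 of liver transcription factors. It did lie in 1 of 28 promoters of detoxification enzymes, 1 of 22 of apical genes and 1 of 16 of mucus genes. Glycan enzymes held it in 1 of 19, and glucose, amino acid and nucleoside carriers in 1 of 21. Ribosomal protein genes, of which none was called, held it in 2 of 32. Stretches are shown only for genes of the lists with the whole word before the start. A match is a description of letters and not a site shown to bind. The word, in capitals, lies before Muc13, a mucin of the gut surface, and B3gnt3, a glycan enzyme, which are described with their groups. Their stretches are chr16:33794267-33794346 on the plus strand and chr8:71701911-71701990 on the minus strand.
Muc13: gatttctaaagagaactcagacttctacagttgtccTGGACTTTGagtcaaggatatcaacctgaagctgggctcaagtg
B3gnt3: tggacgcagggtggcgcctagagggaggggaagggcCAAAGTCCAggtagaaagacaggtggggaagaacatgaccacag

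Lipoprotein and clotting genes were gained in part. Of 19 tested genes of lipoproteins and their assembly 5 rose and 2 fell (median change 0.14, 0.19 within slide 1, -0.04 to 0.57 over the alternatives). Apoa1, which forms high-density lipoprotein, stood at 7.34, 7.25 and 5.66 on the iHep arrays, against -7.39, -8.61 and -8.31 on the MEF arrays (at least 8021-fold higher). Apoc2, an activator of lipoprotein lipase, rose by 8.11 ± 1.0, and Apob, the backbone protein of low-density lipoprotein, by 7.90 ± 1.21. Pltp, a phospholipid transfer protein, stood at -2.03, -2.48 and -2.13 on the iHep arrays, against -0.69, 0.26 and 0.20 on the MEF arrays, and fell by 1.99 ± 0.34. Of 20 tested fibrinogen and clotting genes 6 rose and none fell (median change 0.72, 0.69 within slide 1, 0.36 to 4.73 over the alternatives). Fgb, the fibrinogen beta chain, stood at 7.38, 8.12 and 7.12 on the iHep arrays, against -7.93, -7.56 and -6.93 on the MEF arrays (at least 13870-fold higher), and Serpind1, heparin cofactor II, rose by 9.10 ± 1.25. Of the other chains of fibrinogen, Fgg rose by 8.13 ± 1.37, while Fga stood at -7.28, -4.69 and -6.27 on the iHep arrays, against -6.23, -5.81 and -6.28 on the MEF arrays and was not called. Fga was detected on 1 iHep array and 2 MEF arrays, so the chains did not read alike at the probes used. Pros1, protein S, was not called (-0.99 ± 0.28). Of these genes Apob, Apoc2, Fgg, Pltp and Serpind1 lost the call under at least 1 alternative (adjusted p up to 0.105).

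Enzymes that modify and conjugate foreign compounds were called higher in many cases. Of 33 tested detoxification and redox enzymes 19 rose and none fell (median change 2.92, 2.91 within slide 1, 2.10 to 3.09 over the alternatives). The glutathione transferase gene Gsta2 stood at 5.32, 5.70 and 4.75 on the iHep arrays, against -7.80, -6.01 and -6.13 on the MEF arrays, and rose by 12.19 ± 0.59. Gsta1 rose by 11.74 ± 0.34, but these genes are near-identical in sequence and their probes may read both. Sult1a1, a phenol sulfotransferase, stood at 3.93, 3.73 and 4.13 on the iHep arrays, against -3.71, -5.05 and -5.17 on the MEF arrays, a rise of 8.34 ± 0.45. Gstp1, a glutathione transferase of many cell types, was not called (1.31 ± 0.41). Cyp7a1, which starts bile acid synthesis, was not called and was detected on none of the 6 arrays. Of 29 tested genes of fatty acid uptake, binding and oxidation 9 rose and 3 fell (median change 0.70, 0.67 within slide 1, 0.43 to 0.87 over the alternatives). Acox2, a peroxisomal oxidase of branched chains and bile acid precursors, stood at 0.91, 2.89 and 2.85 on the iHep arrays, against -7.90, -7.22 and -8.81 on the MEF arrays (at least 346-fold higher), and Slc27a2, an acyl-CoA synthetase, rose by 9.21 ± 1.07. The fatty acid binding proteins known from brain and heart, Fabp7 and Fabp3, fell (-6.99 ± 1.04 and -5.14 ± 0.18). Acaa2, of mitochondrial fat oxidation, was not called (0.75 ± 0.25). The calls of Fabp7 and Slc27a2 were lost in at least 1 alternative fit (highest adjusted p 0.0544).

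Of 31 tested enzymes of amino acid, urea and glutamine metabolism 5 rose and 3 fell (median change 0.51, 0.63 within slide 1, 0.27 to 0.81 over the alternatives). Among all tested genes 10.1% rose and 13.2% fell. Glul, glutamine synthetase, stood at 5.46, 5.18 and 5.48 on the iHep arrays, against 0.44, 0.67 and 0.64 on the MEF arrays and rose by 4.82 ± 0.20. Gls2, the liver glutaminase, rose by 2.04 ± 0.38. Ass1, which joins citrulline and aspartate in the urea cycle, stood at 0.50, 0.15 and -0.70 on the iHep arrays, against 4.30, 4.16 and 4.09 on the MEF arrays, lower in all 3 types, and fell by 4.23 ± 0.39. Psat1, of serine synthesis, fell by 2.34 ± 0.32. Cps1, the entry enzyme of the urea cycle, stood at -7.92, -2.45 and -4.30 on the iHep arrays, against -7.94, -8.78 and -8.75 on the MEF arrays and was not called. It was detected on 2 iHep arrays and no MEF array. Glud1, of glutamate oxidation, was not called (0.51 ± 0.22). Of 32 tested genes of glycolysis and gluconeogenesis 7 rose and 3 fell (median change 0.53, 0.42 within slide 1, 0.41 to 0.61 over the alternatives). Fbp2, a fructose bisphosphatase known from muscle, stood at -1.96, -1.98 and -2.54 on the iHep arrays, against -8.01, -8.98 and -8.76 on the MEF arrays (at least 16.6-fold higher), and Aldoc, an aldolase known from brain, rose by 3.20 ± 0.19. Eno2, the neuronal enolase, fell by 2.33 ± 0.35. Pgam2, the muscle mutase, fell (-2.00 ± 0.32). Aldoa was not called (0.55 ± 0.24). Not every call held under each alternative, and Eno2, Gls2 and Psat1 lost theirs in at least 1 (adjusted p up to 0.124).

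Regulators of epithelial identity were higher in most cases. Of 20 tested epithelial regulators and splicing factors 17 rose and 2 fell (median change 4.32, 4.14 within slide 1, 1.94 to 4.64 over the alternatives). Cdx2, the homeobox factor of intestine, stood at 3.24, 2.31 and 3.59 on the iHep arrays, against -8.06, -9.08 and -8.66 on the MEF arrays (at least 614-fold higher), and was not detected on the hepatocyte array. Elf3, a factor of simple epithelia, stood at 0.12, 0.27 and 2.35 on the iHep arrays, against -8.03, -9.11 and -8.88 on the MEF arrays. Both were above all MEF arrays in all 3 types, and Elf3 was detected on the hepatocyte array. Esrp1 and Esrp2, which set epithelial splice forms, rose by 7.11 ± 0.70 and 4.34 ± 0.19. The genes that fell were Bcl11a (-4.00 ± 0.56) and Sox2 (-3.17 ± 0.46, at least 2.58-fold lower), known from blood and nerve and from stem cells. Vdr, the vitamin D receptor, was not called (1.94 ± 0.73). Of keratinocyte markers, Trp63 rose by 1.98 ± 0.51, but this call was lost under 11 of the 15 alternatives. Krt5 and Krt14 were not called (0.29 ± 0.18 and -0.82 ± 0.36). Of bile duct markers, Sox9, Krt7, Krt19 and Epcam rose by 1.5 ± 0.20, 5.56 ± 0.97, 5.73 ± 0.25 and 8.64 ± 0.68, and Spp1, osteopontin, fell by 3.38 ± 0.37. Under at least 1 alternative Bcl11a, Krt7, Sox2, Sox9 and Trp63 no longer passed (highest adjusted p 0.197).

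Most adhesion genes were called higher as well. Of 30 tested genes of epithelial adhesion and junctions 24 rose and 1 fell (median change 5.72, 6.18 within slide 1, 3.71 to 6.18 over the alternatives). The medians of the single types against MEF were 5.58, 5.80 and 6.10 for iHep 1, 2 and 3. Cdh1, E-cadherin, stood at 4.63, 4.59 and 5.20 on the iHep arrays, against -7.85, -8.16 and -8.30 on the MEF arrays (at least 2082-fold higher), with its probe on chromosome 8 at 109559041 to 109559100 (build mm8). Ceacam1, an adhesion protein of liver and gut, stood at 1.83, 1.55 and 4.85 on the iHep arrays, against -7.90, -8.08 and -8.62 on the MEF arrays (at least 499-fold higher). Krt8, a keratin of simple epithelia, stood at 7.55, 7.48 and 8.31 on the iHep arrays, against -3.54, -1.56 and -1.5 on the MEF arrays, and rose by 10.31 ± 0.66. Cdh17, the liver-intestine cadherin, rose by 2.52 ± 0.41. Cdh3, P-cadherin, fell by 3.33 ± 0.70, and Pkp2, of desmosomes, was not called (1.0 ± 0.55). Calls that ended under at least 1 alternative were those of Cdh17 and Cdh3 (adjusted p up to 0.156).

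**Figure D2:**
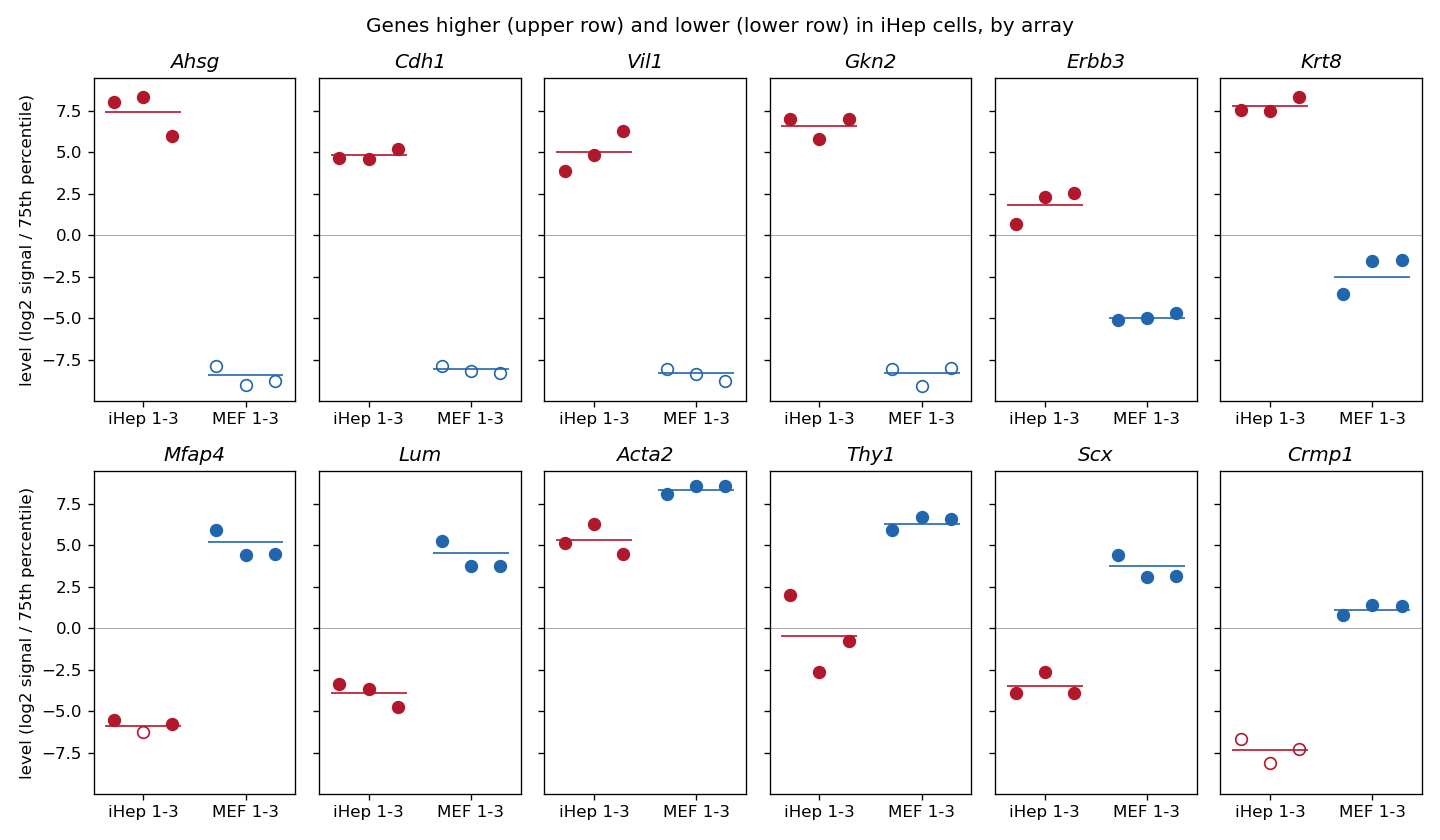
Level of 12 genes on each array (log2, with the 75th percentile of the array at 0), with the 3 iHep arrays left of the 3 MEF arrays in each panel, filled where the probe was well above background and open where it was not. Horizontal lines are the means over 3 iHep arrays and over 2 MEF samples. In the upper row every iHep array lies above every MEF array, and in the lower row every iHep array lies below every MEF array.

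Of 27 tested genes of the apical membrane and microvilli 13 rose and 2 fell (median change 2.79, 3.10 within slide 1, 2.39 to 3.75 over the alternatives). Vil1, villin, which bundles actin in microvilli, stood at 3.84, 4.85 and 6.27 on the iHep arrays, against -8.03, -8.34 and -8.77 on the MEF arrays (at least 2362-fold higher), and Eps8l3, an actin regulator, rose by 11.01 ± 0.58. Vil1 and Eps8l3 were also detected on the hepatocyte array. Anpep, aminopeptidase N, stood at -1.97, -1.80 and -2.94 on the iHep arrays, against 1.62, 1.03 and 0.98 on the MEF arrays and fell (-3.55 ± 0.43), and Pls3, a plastin of many cell types, fell (-1.82 ± 0.27). Myo1d, a motor protein, was not called (-0.05 ± 0.21). Of 25 tested genes of vesicle traffic in polarised cells 17 rose and none fell (median change 2.38, 2.67 within slide 1, 1.58 to 2.67 over the alternatives). Crb3, an apical polarity protein, stood at -1.38, -0.46 and -0.74 on the iHep arrays, against -7.71, -8.80 and -8.55 on the MEF arrays (at least 41-fold higher), and Arhgef16, an exchange factor of small GTPases, rose by 7.79 ± 0.79. Vps37b, of endosomal sorting, was not called (0.32 ± 0.32). Of 22 tested surface proteases and inhibitors 11 rose and none fell (median change 1.98, 2.10 within slide 1, 1.05 to 2.43 over the alternatives). Tmprss2, a membrane serine protease, stood at 2.59, 2.11 and 2.38 on the iHep arrays, against -6.41, -6.63 and -6.77 on the MEF arrays (at least 370-fold higher), and Spint1, an inhibitor of such proteases, rose by 8.08 ± 0.43. Prss23 was not called (-1.19 ± 0.59). At least 1 alternative ended the calls of Anpep and Pls3 (adjusted p up to 0.0754).

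Secretions of gut and stomach lining were detected in iHep cells. Of 21 tested genes of mucus, trefoil and antimicrobial secretions 10 rose and 2 fell (median change 1.85, 1.88 within slide 1, 0.65 to 2.92 over the alternatives). Tff3, a trefoil peptide of goblet cells, stood at 7.79, 6.85 and 9.0 on the iHep arrays, against -7.82, -8.08 and -8.59 on the MEF arrays (at least 17530-fold higher). Gkn2, a gastrokine of stomach lining, stood at 7.0, 5.77 and 7.01 on the iHep arrays, against -8.06, -9.07 and -7.97 on the MEF arrays (at least 7179-fold higher), and was not detected on the hepatocyte array. Tff1, the trefoil peptide of stomach, rose by 11.83 ± 1.02, Muc13 by 10.86 ± 0.77, and Clca1 and Zg16, goblet cell products, by 12.77 ± 0.56 and 11.81 ± 0.96. In contrast to Gkn2, Tff3, Clca1 and Zg16 were detected on the hepatocyte array. Muc2, the mucin that defines goblet cells, and Gkn1 were detected on none of the 6 arrays. The lysozyme genes Lyz2 and Lyz1 fell (-7.67 ± 1.14 and -7.52 ± 1.1), with levels of -0.96, 0.39 and -3.42 on the iHep arrays, against 6.02, 6.67 and 6.67 on the MEF arrays for Lyz2. These copies are near-identical and a probe may read both, and Lyz2 is also a macrophage gene. Ang, angiogenin, was not called (0.29 ± 0.35). Of these genes Lyz1 and Lyz2 lost the call under at least 1 alternative (adjusted p up to 0.0809).

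Of 27 tested glycan-building enzymes 11 rose and 3 fell (median change 1.5, 1.56 within slide 1, 0.79 to 1.56 over the alternatives). Gcnt3, which branches mucin glycans, stood at 1.72, 0.26 and 3.51 on the iHep arrays, against -7.95, -7.10 and -7.85 on the MEF arrays (at least 265-fold higher), and B3gnt3, 1 of the genes whose promoter is printed here, rose by 7.24 ± 0.66. Chst2, a sulfotransferase, and Galnt6, which starts mucin glycans, fell (-5.03 ± 0.67 and -4.56 ± 0.45). St3gal5, of ganglioside synthesis, was not called (0.68 ± 0.32). Of 28 tested ion channels and pumps 15 rose and 2 fell (median change 2.28, 2.54 within slide 1, 1.79 to 2.54 over the alternatives). The sodium channel subunit gene Scnn1g stood at 3.50, 3.18 and 5.54 on the iHep arrays, against -7.35, -8.88 and -8.63 on the MEF arrays (at least 1251-fold higher), and Kcne3, a potassium channel subunit of gut, rose by 10.11 ± 0.78. Aqp1, a water channel, stood at -5.04, -2.89 and -5.31 on the iHep arrays, against 3.36, 0.38 and 0.41 on the MEF arrays, and fell by 6.29 ± 1.16. Kcnk6, a potassium channel, fell by 2.32 ± 0.49, and Trpm4 was not called (1.02 ± 0.51). Of 28 tested carriers of glucose, amino acids and nucleosides 4 rose and 2 fell (median change 0.26, 0.17 within slide 1, 0.08 to 0.36 over the alternatives). Slc7a11, the cystine carrier, rose by 3.39 ± 0.24 and Slc22a18 by 3.13 ± 0.23, and the glucose carriers Slc2a3 and Slc2a4 fell (-4.83 ± 0.45 and -3.28 ± 0.31). Slc3a2, a shared chain of amino acid carriers, was not called (-0.04 ± 0.22), and its probes disagreed in direction. Slc39a4, a zinc carrier of gut that is in none of these lists, stood at 5.63, 5.55 and 6.40 on the iHep arrays, against -3.98, -3.59 and -3.70 on the MEF arrays, a rise of 9.67 ± 0.33. The calls of Aqp1, Chst2 and Kcnk6 were lost in at least 1 alternative fit (highest adjusted p 0.155).

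**Figure D3:**
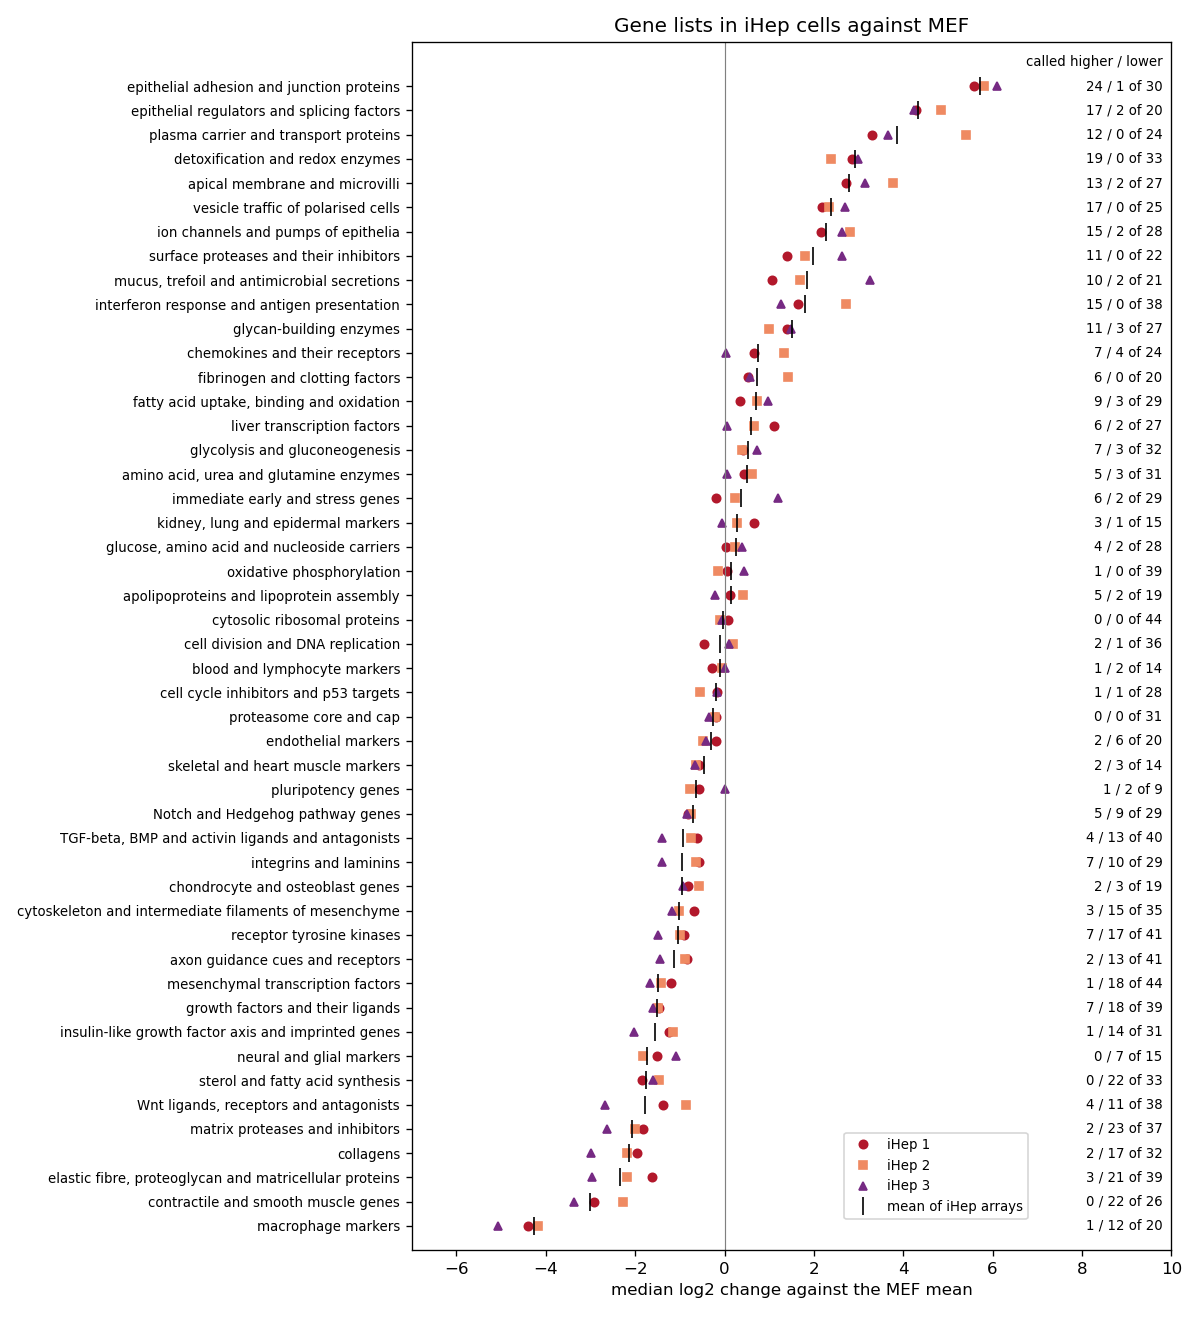
Median log2 change of each of the 48 gene lists, with 1 point for each iHep array against the MEF mean, and the counts of members called higher and lower of those tested at the right. The epithelial adhesion list has a median of 5.72, the macrophage list one of -4.26, and the ribosomal list one of -0.04.

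Receptors that read growth factors moved in both directions. Of 41 tested receptor tyrosine kinases 7 rose and 17 fell (median change -1.05, -0.95 within slide 1, -1.23 to -0.68 over the alternatives). Erbb3, a receptor of the EGF receptor family in epithelia, stood at 0.69, 2.29 and 2.55 on the iHep arrays, against -5.13, -4.99 and -4.71 on the MEF arrays, and rose by 6.84 ± 0.61 (adjusted p = 0.00302). Mst1r, the receptor of macrophage stimulating protein, rose by 2.77 ± 0.25. Among fibroblast markers, Pdgfra stood at -0.64, -1.49 and -1.45 on the iHep arrays, against 2.12, 1.17 and 1.19 on the MEF arrays, and fell (-2.84 ± 0.42), and Pdgfrb fell (-2.17 ± 0.45). Ntrk2, a neurotrophin receptor, stood at -8.12, -7.22 and -8.44 on the iHep arrays, against -0.18, -0.77 and -0.83 on the MEF arrays, and was not detected on any iHep array (at least 47.1-fold lower). Kdr, the VEGF receptor of endothelium, fell by 7.51 ± 0.33 (at least 67.5-fold lower). Ddr2, a collagen receptor, was not called (-1.1 ± 0.44). Of 39 tested growth factors and ligands 7 rose and 18 fell (median change -1.51, -1.63 within slide 1, -1.65 to -0.79 over the alternatives). Areg, amphiregulin, a ligand of the EGF receptor, stood at 1.58, 1.87 and 2.93 on the iHep arrays, against -3.73, -5.32 and -5.49 on the MEF arrays, and rose by 6.70 ± 0.65. Fgf1 rose by 6.37 ± 0.58. Ptn, pleiotrophin, stood at 1.14, -3.42 and -2.43 on the iHep arrays, against 5.22, 4.99 and 5.01 on the MEF arrays, and fell (-6.68 ± 1.39), and Fgf5 fell (-6.67 ± 0.55, at least 27.8-fold lower). Met, the receptor of hepatocyte growth factor, stood at 1.66, 1.43 and 1.65 on the iHep arrays, against -0.10, 0.07 and -0.09 on the MEF arrays, a rise of 1.64 ± 0.18, but its detected probes ran from -1.29 to 1.82 and disagreed in direction. Hgf stood at -4.29, -4.97 and -6.16 on the iHep arrays, against -2.33, -2.72 and -2.71 on the MEF arrays, and fell by 2.61 ± 0.58. Ccn2, a matrix-bound ligand, was not called (-0.74 ± 0.54). Not every call held under each alternative, and Hgf, Pdgfra, Pdgfrb and Ptn lost theirs in at least 1 (adjusted p up to 0.168).

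**Figure D4:**
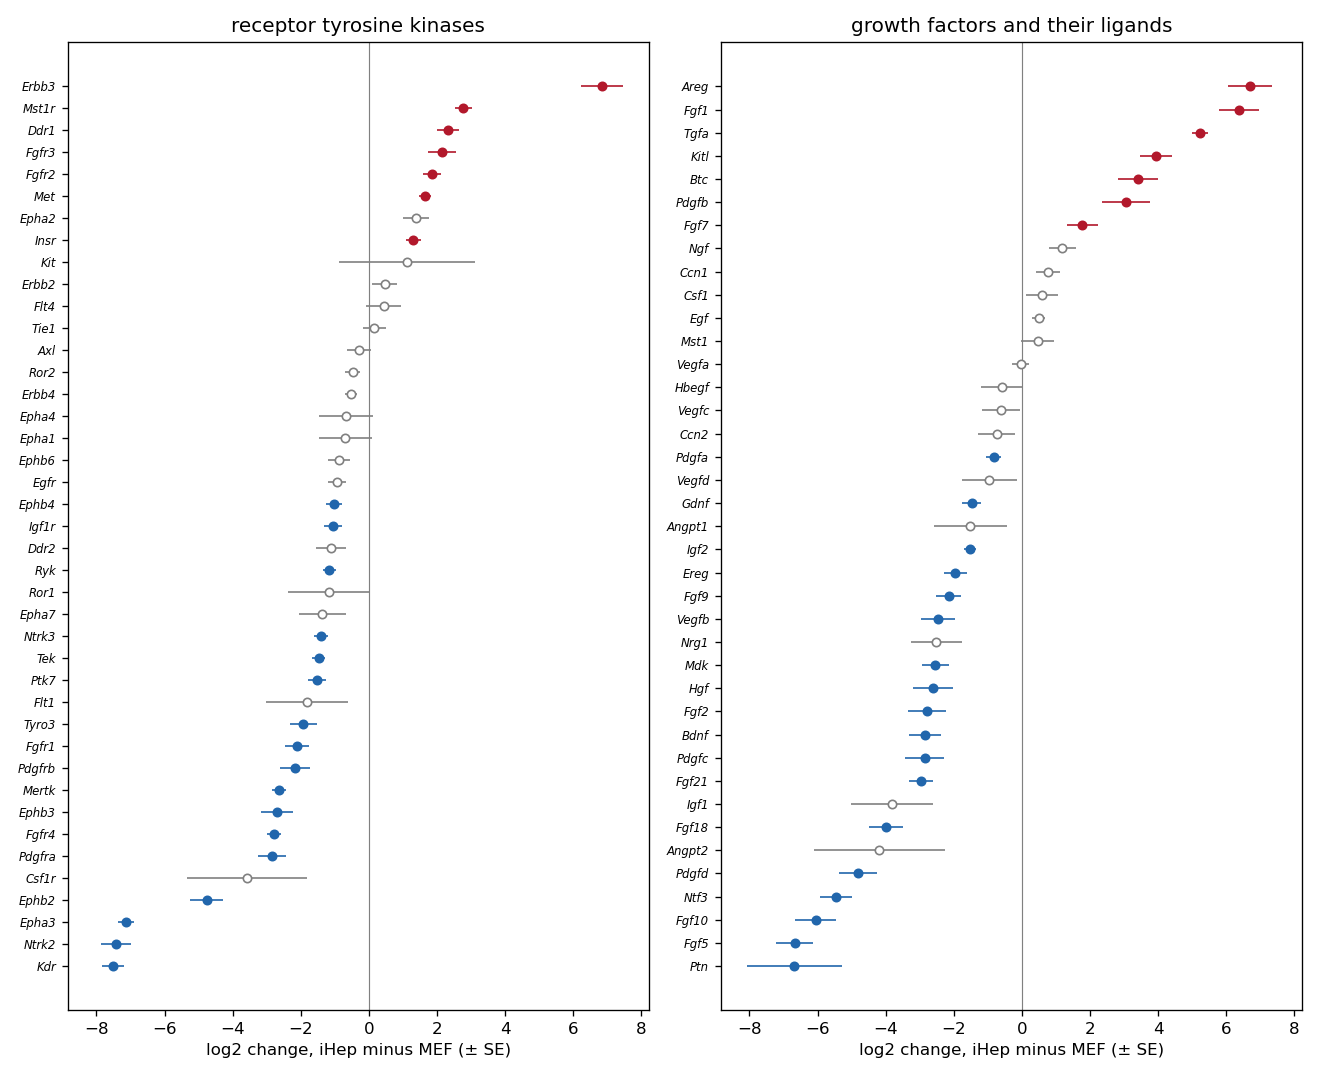
Log2 change (iHep minus MEF ± SE) of the tested receptor tyrosine kinases and growth factor ligands, with filled points for genes called at an adjusted p under 0.05. Receptors have 7 called members right of 0 and 17 left of it, and ligands 7 and 18.

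Signals that pattern the embryo were lower more often than higher. Of 40 tested genes of TGF-β, BMP and activin signalling 4 rose and 13 fell (median change -0.93, -1.19 within slide 1, -1.19 to -0.50 over the alternatives). Chrdl1, a BMP antagonist, stood at -8.01, -7.77 and -8.38 on the iHep arrays, against -0.79, -2.67 and -2.80 on the MEF arrays, and fell by 6.29 ± 0.61. Gdf15, a stress-induced hormone, rose by 3.88 ± 0.78, and the antagonist gene Nog by 3.30 ± 0.59. Tgfbr2, a TGF-β receptor, was not called (-0.48 ± 0.28). Of 38 tested Wnt pathway genes 4 rose and 11 fell (median change -1.79, -1.56 within slide 1, -2.03 to -0.80 over the alternatives). Wnt4, a ligand of kidney and gonad, stood at 3.79, 3.05 and 2.25 on the iHep arrays, against -5.32, -1.98 and -1.84 on the MEF arrays, and rose by 6.65 ± 1.09, and Wif1, a secreted inhibitor, rose by 4.97 ± 0.79. Dkk2, another inhibitor, stood at -6.36, -2.02 and -6.22 on the iHep arrays, against 2.17, 1.76 and 1.73 on the MEF arrays, and fell (-6.82 ± 1.43), and Rspo2, an enhancer of the signal, fell (-6.72 ± 0.96). Fzd6, a receptor, was not called (0.55 ± 0.33). Under at least 1 alternative Dkk2, Gdf15, Nog and Wif1 no longer passed (highest adjusted p 0.147).

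Of 29 tested Notch and Hedgehog pathway genes 5 rose and 9 fell (median change -0.71, -0.69 within slide 1, -0.83 to -0.47 over the alternatives). The Notch ligand gene Jag2 stood at -2.33, -2.30 and -0.41 on the iHep arrays, against -7.51, -6.14 and -6.05 on the MEF arrays, and rose by 5.12 ± 0.77, and Dll4, another ligand, rose by 4.92 ± 0.33. Hhip and Boc, which bind Hedgehog ligands, fell (-3.59 ± 0.68 and -3.31 ± 0.44). Smo, which relays the Hedgehog signal, was not called (-0.99 ± 0.28). Of 41 tested axon guidance genes 2 rose and 13 fell (median change -1.14, -1.03 within slide 1, -1.38 to -0.85 over the alternatives). Crmp1, which relays semaphorin signals, stood at -6.66, -8.09 and -7.26 on the iHep arrays, against 0.79, 1.39 and 1.36 on the MEF arrays (at least 141-fold lower), and Unc5c, a netrin receptor, fell by 7.41 ± 0.62. Sema4g and Sema4a rose by 4.47 ± 0.32 and 2.95 ± 0.26. Plxnb2, a semaphorin receptor, was not called (0.29 ± 0.29). Calls that ended under at least 1 alternative were those of Boc, Hhip and Jag2 (adjusted p up to 0.13).

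Immune signals included more genes called higher than lower. Of 24 tested chemokines and receptors 7 rose and 4 fell (median change 0.74, 0.50 within slide 1, 0.26 to 1.08 over the alternatives). Cxcl2, which draws neutrophils, stood at -1.98, 0.22 and -1.01 on the iHep arrays, against -6.97, -7.55 and -7.67 on the MEF arrays (at least 39.2-fold higher), and Cxcl15 rose by 5.49 ± 1.17. Cxcl14 stood at -3.20, -4.99 and -6.09 on the iHep arrays, against 3.82, 4.65 and 4.59 on the MEF arrays, and fell (-8.98 ± 0.89), and the receptor gene Cxcr6 fell (-5.58 ± 0.79). Cxcl12, a chemokine of stroma, was not called (-2.45 ± 0.65). Of 38 tested genes of the interferon response and antigen presentation 15 rose and none fell (median change 1.80, 1.20 within slide 1, 1.20 to 2.37 over the alternatives). Oas2, which senses double-stranded RNA, stood at 3.56, 3.30 and 3.30 on the iHep arrays, against -5.09, -6.10 and -6.56 on the MEF arrays, and rose by 9.09 ± 0.40. Mx1, an antiviral GTPase, stood at -0.70, -1.19 and -0.50 on the iHep arrays, against -6.87, -8.76 and -8.33 on the MEF arrays (at least 42.8-fold higher). B2m, the light chain of class I molecules, was not called (-0.32 ± 0.57), and its probes disagreed in direction. Acute phase genes were among the 10 largest rises of genes detected on all 6 arrays. The complement genes Cfb and C3 rose by 10.76 ± 0.41 and 8.69 ± 0.71, Saa3, serum amyloid, by 9.19 ± 1.31 and Lbp, which binds bacterial lipopolysaccharide, by 8.58 ± 0.31. At least 1 alternative ended the calls of Cxcl15 and Cxcr6 (adjusted p up to 0.129).

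A core word of interferon response elements, GAAANNGAA on either strand, lay in 15 of 30 promoters of the interferon list (50%), against 9.76% of all promoters of the table, and in 3 of the 10 promoters of its genes called higher. Those 3 are shown, because these genes were called. Over all genes the word lay in 8.17% of promoters of those called higher and 9.03% of those called lower, without a test. Of tested genes 8.72% held it. It also lay in 5 of 12 promoters (41.7%) of elastic fibre, proteoglycan and matricellular genes called lower. The stretch of Oas1a is chr5:120907526-120907605, that of H2-T23 is chr17:36032781-36032860 and that of Ifih1 is chr2:62646324-62646403, all on the minus strand of GRCm38.p6, with the word in capitals. The Oas1a stretch holds 1 other match of the word, and the others hold no further searched word.
Oas1a: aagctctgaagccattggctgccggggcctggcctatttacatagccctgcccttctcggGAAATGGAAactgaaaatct
H2-T23: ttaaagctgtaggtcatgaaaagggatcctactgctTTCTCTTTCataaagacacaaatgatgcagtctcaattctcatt
Ifih1: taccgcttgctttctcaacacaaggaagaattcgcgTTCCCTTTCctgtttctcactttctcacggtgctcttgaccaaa
Oas1a, an enzyme that senses viral RNA, rose by 4.44 ± 0.25, H2-T23, a class I molecule, by 3.66 ± 0.22 and Ifih1, an RNA sensor, by 1.93 ± 0.23.

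Genes of the extracellular matrix were called lower more often than higher. Of 32 tested collagens 2 rose and 17 fell (median change -2.14, -2.09 within slide 1, -2.37 to -1.51 over the alternatives). The type I and III chains Col1a1, Col1a2 and Col3a1, fibroblast markers, fell (-2.37 ± 0.48, -4.26 ± 0.50 and -4.92 ± 1.22). Col3a1 stood at 1.75, 3.71 and -0.43 on the iHep arrays, against 6.96, 6.26 and 6.19 on the MEF arrays, so it was lower on every iHep array but still detected there. Col8a1, of vessel walls, stood at -0.36, -3.02 and -3.20 on the iHep arrays, against 6.36, 6.55 and 6.56 on the MEF arrays, and fell (-8.65 ± 0.93), and Col8a2 fell (-6.16 ± 0.84). Col15a1, of basement membranes, and Col11a2, of cartilage, rose by 3.13 ± 0.55 and 1.83 ± 0.33, and Col6a3 was not called (-1.57 ± 0.58). Summed signal of the list was 73.2 to 164 times the 75th percentile in iHep cells and 1030 to 1070 times in MEF. In bulk samples, fewer cells of a type and less RNA per cell cannot be told apart. Of 39 tested elastic fibre, proteoglycan and matricellular genes 3 rose and 21 fell (median change -2.34, -2.51 within slide 1, -2.51 to -1.95 over the alternatives). Mfap4, of elastic microfibrils, stood at -5.55, -6.27 and -5.77 on the iHep arrays, against 5.92, 4.43 and 4.47 on the MEF arrays, and fell by 11.05 ± 0.50. Aspn, asporin, fell by 9.18 ± 0.90. Lumican (Lum) and periostin (Postn) fell (-8.43 ± 0.62 and -7.93 ± 1.60), and the detected Postn probes changed by -7.93 and -2.81. Tnxb, tenascin-X, and Prelp rose by 4.08 ± 0.52 and 2.30 ± 0.59. Dcn, decorin, stood at 6.00, 6.20 and 4.33 on the iHep arrays, against 6.07, 5.41 and 5.38 on the MEF arrays and was not called, although it marks fibroblasts. Of these genes Col11a2, Col15a1, Col1a1, Col1a2, Col3a1, Postn, Prelp and Tnxb lost the call under at least 1 alternative (adjusted p up to 0.21).

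Of 29 tested integrins and laminins 7 rose and 10 fell (median change -0.95, -0.67 within slide 1, -1.20 to -0.43 over the alternatives). Lamb3, a chain of the epithelial laminin, stood at 0.33, 1.34 and -0.85 on the iHep arrays, against -7.80, -7.95 and -6.96 on the MEF arrays (at least 89.9-fold higher), and Itgb4, the integrin of hemidesmosomes, rose by 4.97 ± 0.34. Itga11, a collagen receptor of fibroblasts, stood at -0.50, -2.01 and -4.50 on the iHep arrays, against 4.52, 5.15 and 5.18 on the MEF arrays, and fell (-7.18 ± 1.19), and Lama1 fell (-3.71 ± 0.33). Lamc1, a chain of most laminins, was not called (-0.45 ± 0.34). Of 37 tested matrix proteases and inhibitors 2 rose and 23 fell (median change -2.07, -2.56 within slide 1, -2.56 to -1.75 over the alternatives). Mmp2, gelatinase A, stood at 0.12, -3.40 and -0.41 on the iHep arrays, against 5.54, 4.47 and 4.50 on the MEF arrays, and fell (-6.24 ± 1.15). Adam19, a membrane protease, fell (-7.37 ± 0.34, at least 132-fold lower) at its brightest probe, and its 3 detected probes ran from -7.37 to -1.76. Mmp15, a membrane metalloproteinase, and Plaur, the urokinase receptor, rose by 5.92 ± 0.31 and 2.37 ± 0.30. Timp3, an inhibitor, was not called (0.72 ± 0.49). The calls of Itga11, Mmp2 and Plaur were lost in at least 1 alternative fit (highest adjusted p 0.124).

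Of 26 tested contractile and smooth muscle genes none rose and 22 fell (median change -3.0, -2.78 within slide 1, -3.24 to -2.45 over the alternatives). Acta2, smooth muscle actin, stood at 5.12, 6.28 and 4.46 on the iHep arrays, against 8.11, 8.56 and 8.56 on the MEF arrays, and fell by 3.05 ± 0.57. Myh11, the smooth muscle myosin, fell by 5.84 ± 0.59. Desmin (Des) fell by 5.30 ± 0.57, and Jph2, which couples calcium stores to the membrane, was at least 149-fold lower. Cnn2, a calponin, was not called (-1.71 ± 0.46). Lrat, a marker of stellate cells, was detected on none of the 6 arrays, and Rgs5, of pericytes, was not called (1.32 ± 1.27). Of 35 tested genes of the mesenchymal cytoskeleton and surface 3 rose and 15 fell (median change -1.01, -0.76 within slide 1, -1.16 to -0.76 over the alternatives). Thy1, a surface marker of fibroblasts, stood at 1.98, -2.65 and -0.79 on the iHep arrays, against 5.92, 6.68 and 6.58 on the MEF arrays, and fell (-6.76 ± 1.37), and Lrrc17 fell (-5.80 ± 0.44). Vim, vimentin, stood at 5.76, 5.69 and 5.54 on the iHep arrays, against 7.73, 7.94 and 7.97 on the MEF arrays, and fell by 2.18 ± 0.19. Its level stayed above the 75th percentile on all 3 iHep arrays. Anxa8, an annexin, and Icam1, an adhesion molecule, rose by 3.62 ± 0.42 and 2.87 ± 0.51, and S100a6 was not called (0.55 ± 0.22). Not every call held under each alternative, and Acta2, Anxa8, Icam1 and Thy1 lost theirs in at least 1 (adjusted p up to 0.141).

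Of 44 tested mesenchymal transcription factors 1 rose and 18 fell (median change -1.48, -1.67 within slide 1, -1.67 to -1.11 over the alternatives). Scx, scleraxis, of tendon, stood at -3.87, -2.66 and -3.88 on the iHep arrays, against 4.43, 3.07 and 3.15 on the MEF arrays, and fell by 7.24 ± 0.58. Meox2, a homeobox factor of muscle and vessels, stood at -7.92, -8.22 and -7.92 on the iHep arrays, against 0.76, -1.66 and -1.74 on the MEF arrays (at least 47.9-fold lower). These Meox2 values are of its brightest probe, and its detected probes changed by -7.55 and -2.68. Foxf2, a factor of gut mesenchyme, rose by 2.34 ± 0.39. Prrx1, a factor of limb mesenchyme, was not called (-0.73 ± 0.50), and its probes disagreed in direction. Of 31 tested genes of the insulin-like growth factor axis and imprinted genes 1 rose and 14 fell (median change -1.55, -1.40 within slide 1, -1.78 to -1.19 over the alternatives). Grb10, an adaptor that dampens insulin signals, stood at -1.80, 1.40 and -1.41 on the iHep arrays, against 5.14, 5.67 and 5.67 on the MEF arrays, and fell (-6.01 ± 1.03), and Nnat, neuronatin, fell (-4.50 ± 0.63). Dio3, which inactivates thyroid hormone, rose by 4.07 ± 0.47, and Igfbp7 was not called (-0.79 ± 0.67). Of 19 tested cartilage and bone genes 2 rose and 3 fell (median change -0.96, -0.64 within slide 1, -1.24 to -0.21 over the alternatives). Among all tested genes 10.1% rose and 13.2% fell. Epyc and Phex fell (-4.55 ± 0.88 and -4.35 ± 0.70), Snorc and Chad rose by 1.89 ± 0.30 and 0.94 ± 0.24, and Mgp was not called (-2.88 ± 1.03). Under at least 1 alternative Chad, Epyc, Foxf2, Grb10, Nnat, Phex and Snorc no longer passed (highest adjusted p 0.191).

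MEF arrays also carried markers of other cells. Of 20 tested macrophage markers 1 rose and 12 fell (median change -4.26, -3.68 within slide 1, -4.92 to -2.04 over the alternatives). The detected markers numbered between 7 and 10 on the iHep arrays, and 19 on each MEF array. C1qc, of complement component C1q, stood at -8.01, -8.35 and -7.59 on the iHep arrays, against 0.50, 1.26 and 1.25 on the MEF arrays (at least 122-fold lower), and Adgre1, the F4/80 antigen, at -8.05, -8.37 and -7.86 on the iHep arrays, against -0.63, 0.71 and 0.59 on the MEF arrays (at least 66.8-fold lower). These Adgre1 values are of its brightest probe, and its detected probes changed by -8.10 and -2.97. C1qa, C1qb and the white blood cell gene Ptprc fell (-7.86 ± 0.27, -2.97 ± 0.31 and -5.34 ± 0.43). Adgre1, C1qa, C1qc and Ptprc were detected on no iHep array. Cd14, a lipopolysaccharide co-receptor, rose by 4.65 ± 0.47, and Csf1r and Mpeg1 were not called (-3.59 ± 1.76 and -2.54 ± 0.72). Summed signal of the list was 6.91 to 16.2 times the 75th percentile in iHep cells and 12.5 to 23.2 times in MEF, so the ranges overlap. These sums include Cd14, which stood at 2.61, 3.88 and 3.87 on the iHep arrays. It lay below the 75th percentile on every MEF array. The overlap of the sums therefore does not show similar levels of the other macrophage markers, and sums without Cd14 were not computed. Of 20 tested endothelial markers 2 rose and 6 fell (median change -0.31, -0.68 within slide 1, -1.65 to -0.09 over the alternatives). Kdr, Tek and Erg fell (-7.51 ± 0.33, -1.47 ± 0.19 and -7.89 ± 0.85) and were detected on no iHep array. Lyve1 and Vwf rose by 5.66 ± 1.43 and 1.81 ± 0.40, while Egfl7 was not called (-0.26 ± 0.33), and Cdh5 and Pecam1 were detected on none of the 6 arrays. Summed signal was 2.53 to 6.82 times the 75th percentile in iHep cells and 7.52 to 10.2 times in MEF. Of 15 tested neural and glial markers none rose and 7 fell (median change -1.73, -1.29 within slide 1, -3.09 to -0.40 over the alternatives). Stmn2, Nefm, Map2 and Tubb3 fell (-5.45 ± 0.31, -4.24 ± 0.23, -3.14 ± 0.44 and -2.58 ± 0.47), and Nes and Sox10 were not called (0.30 ± 0.66 and -0.68 ± 0.19). Stmn2 and Nefm were detected on no iHep array and were at least 9.53-fold and 4.59-fold lower. Summed signal was 2.71 to 5.58 times the 75th percentile in iHep cells and 4.34 to 9.71 times in MEF. The part of these cells in the lower matrix, signalling and lysozyme genes was not tested. Calls that ended under at least 1 alternative were those of Lyve1, Map2, Tek, Tubb3 and Vwf (adjusted p up to 0.217).

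Among all tested genes 10.1% rose and 13.2% fell, which stands beside each count of this paragraph. Of 14 tested skeletal and heart muscle markers 2 rose and 3 fell (median change -0.47, -0.38 within slide 1, -0.77 to -0.12 over the alternatives). Myh7 and Myh6, myosins of heart, rose by 5.27 ± 0.93 and 3.31 ± 0.57, Myh1 and Nppa fell (-5.46 ± 0.59 and -2.35 ± 0.18), and Myl4 was not called (-1.62 ± 0.53). Myod1, Myog and Ckm were detected on no iHep array. Of 14 tested blood and lymphocyte markers 1 rose and 2 fell (median change -0.11, -0.09 within slide 1, -0.20 to 0.03 over the alternatives). S100a8 rose by 2.51 ± 0.54, Cd34 and Tal1 fell (-3.27 ± 0.52 and -2.46 ± 0.33), and Lck and Cd3e were not called (-0.02 ± 0.47 and -0.21 ± 0.23). Cd79a, of B cells, was detected on no iHep array and on 1 MEF array. Of 15 tested kidney, lung and epidermal markers 3 rose and 1 fell (median change 0.29, 0.31 within slide 1, 0.16 to 0.96 over the alternatives). Scgb1a1, of airway cells, and Nkx2-1, a factor of lung and thyroid, rose by 5.59 ± 0.77 and 5.03 ± 1.05, Lor fell by 2.69 ± 0.63 and Krt10 was not called (0.16 ± 0.29). Of 9 tested pluripotency genes 1 rose and 2 fell (median change -0.64, -0.40 within slide 1, -0.68 to -0.20 over the alternatives). Klf4 rose by 1.56 ± 0.32, Sox2 and Esrrb fell (-3.17 ± 0.46 and -1.99 ± 0.22), and Klf2 was not called (-0.67 ± 0.45). Sox2 and Esrrb were detected on no iHep array and were at least 2.58-fold and 1.70-fold lower. At least 1 alternative ended the calls of Cd34, Esrrb, Klf4, Lor, Myh6, Myh7, Nkx2-1, S100a8, Scgb1a1, Sox2 and Tal1 (adjusted p up to 0.177).

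Few genes of cell division, p53 targets, ribosomes, proteasomes and oxidative phosphorylation were called. Of 36 tested genes of cell division and DNA replication 2 rose and 1 fell (median change -0.10, -0.19 within slide 1, -0.20 to 0.10 over the alternatives). E2f2, a factor of S phase genes, and Ccne2, a cyclin, rose by 2.59 ± 0.26 and 1.40 ± 0.24, Ccnd3, another cyclin, fell by 1.03 ± 0.26, and Ccnd2 was not called (-0.37 ± 0.27). Of 28 tested cell cycle inhibitors and p53 targets 1 rose and 1 fell (median change -0.20, -0.30 within slide 1, -0.33 to -0.08 over the alternatives). Trp53inp1 rose by 1.35 ± 0.25, Gadd45a fell by 1.27 ± 0.28, and Phlda3 was not called (-0.09 ± 0.30). Of 44 tested cytosolic ribosomal protein genes none rose and none fell (median change -0.04, -0.04 within slide 1, -0.11 to 0.00 over the alternatives). Of 31 tested proteasome genes none rose and none fell (median change -0.26, -0.24 within slide 1, -0.30 to -0.19 over the alternatives). Their brightest members, Rplp1 and Psmd3, were at 0.13 ± 0.19 and 0.14 ± 0.21. Of 39 tested genes of oxidative phosphorylation 1 rose and none fell (median change 0.14, 0.17 within slide 1, -0.03 to 0.23 over the alternatives). Cox7a1, a subunit of heart and muscle, rose by 2.59 ± 0.49, and Cox6a1 was not called (0.15 ± 0.25). Of 29 tested immediate early and stress genes 6 rose and 2 fell (median change 0.37, 0.30 within slide 1, 0.10 to 0.72 over the alternatives). Of all tested genes 10.1% rose and 13.2% fell. Myc and Txnip rose by 2.82 ± 0.24 and 2.87 ± 0.54, the stress factors Ddit3 and Trib3 fell (-2.34 ± 0.36 and -1.92 ± 0.46), and Hspa5, a chaperone, was not called (-0.23 ± 0.27). Of these genes Ccnd3, Ccne2, Cox7a1, Ddit3, Gadd45a, Trib3, Trp53inp1 and Txnip lost the call under at least 1 alternative (adjusted p up to 0.197).

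Most genes of sterol and fatty acid synthesis were called lower. The enzymes of cholesterol synthesis run from acetyl-CoA through mevalonate and squalene to lanosterol, and SREBP factors switch them on together when sterols are low. Of 33 tested genes of sterol and fatty acid synthesis none rose and 22 fell (median change -1.75, -1.76 within slide 1, -1.79 to -1.5 over the alternatives). The types had medians of -1.84, -1.47 and -1.60 for iHep 1, 2 and 3 against MEF. Mvd, of the mevalonate steps, stood at -0.00, 0.41 and 0.18 on the iHep arrays, against 3.08, 2.73 and 2.72 on the MEF arrays, and fell by 2.70 ± 0.23 (adjusted p = 0.00266). Cyp51, which oxidises lanosterol, stood at 0.33, 0.81 and 0.44 on the iHep arrays, against 3.17, 3.21 and 3.15 on the MEF arrays, and fell by 2.65 ± 0.22 (adjusted p = 0.00255). All iHep arrays were below all MEF arrays at both genes. Hmgcs1, which makes HMG-CoA, stood at 3.64, 3.94 and 3.80 on the iHep arrays, against 5.76, 5.88 and 5.88 on the MEF arrays, and fell by 2.03 ± 0.19 at its brightest probe, while another detected probe changed by 0.45. The factor genes Srebf1 and Srebf2 were not called (0.03 ± 0.18 and -0.45 ± 0.23), nor was Scd2, a desaturase (-0.94 ± 0.28). Summed signal of the list was 305 to 382 times the 75th percentile in iHep cells and 676 to 683 times in MEF. The call of Hmgcs1 was lost in at least 1 alternative fit (highest adjusted p 0.0644).

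**Figure D5:**
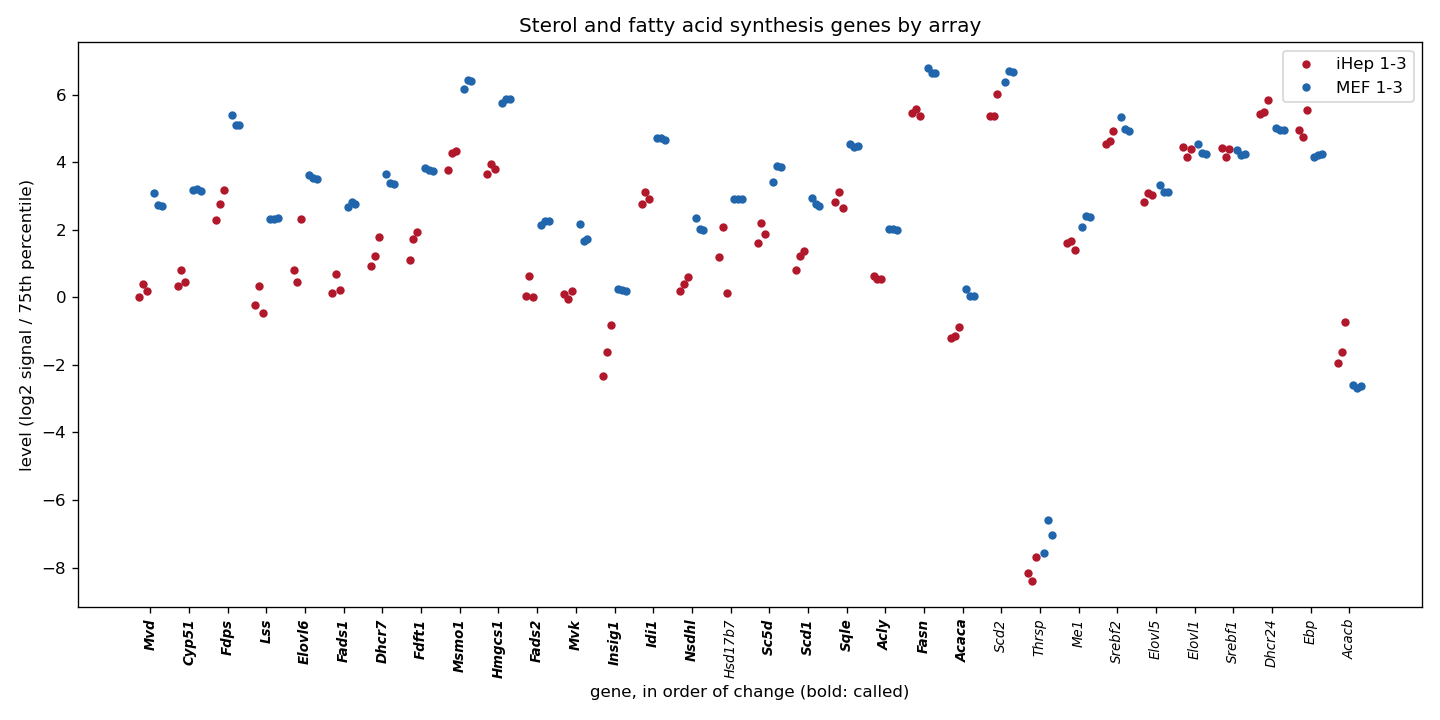
Level of 32 of the 33 tested genes of sterol and fatty acid synthesis on each array (log2, with the 75th percentile of the array at 0), with the 3 iHep arrays drawn left of the 3 MEF arrays for each gene and genes ordered by their change. The 21 drawn genes that fell are named in bold.

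The Hmgcs1 promoter is shown because it holds a core word of sterol response elements, TCACNCCAC on either strand. The word lay in 1 of 16 promoters of genes of this list called lower and in 1.44% of all promoters of the table. Over all genes it lay in 1.92% of promoters of those called higher, 1.39% of those called lower and 1.43% of those tested, without a test. The stretch is chr13:119690178-119690257 on the plus strand of GRCm38.p6, with the word in capitals at -137 bases from the gene's start and no other searched word.
Hmgcs1: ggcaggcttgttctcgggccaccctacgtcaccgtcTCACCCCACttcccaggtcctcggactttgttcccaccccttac

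Over all genes, the 10 largest rises among genes detected on all 6 arrays, with no overlap between the groups, were Serpina1d, Cfb, Krt8, Lgals6, Slc39a4, Lgals4, Saa3, C3, Lbp and Sult1a1. Serpina1d, an antitrypsin, stood at 6.22, 7.64 and 3.66 on the iHep arrays, against -5.26, -5.19 and -5.24 on the MEF arrays, but near-identical copies may share the probe, as may Lgals4 and Lgals6, galectins of gut epithelium. Lgals4 stood at 6.85, 6.44 and 7.78 on the iHep arrays, against -2.33, -2.40 and -2.32 on the MEF arrays. The 10 largest falls were Fxyd6, Col8a1, Lum, Postn, Igsf10, Lyz2, Lyz1, Il1rl1, Scx and 1 unnamed transcript. Fxyd6, a regulator of the sodium pump, stood at -4.76, -4.71 and -5.05 on the iHep arrays, against 4.33, 4.15 and 4.17 on the MEF arrays, and Il1rl1, the receptor of interleukin 33, at -0.85, -1.31 and -4.98 on the iHep arrays, against 5.76, 4.14 and 4.15 on the MEF arrays. Among the brightest genes lost from detection were C1qtnf3 and C1qtnf2, secreted proteins of the C1q family, which were at least 201-fold lower and at least 124-fold lower. Tnmd, tenomodulin of tendon, stood at -7.73, -8.05 and -8.08 on the iHep arrays, against 0.50, 1.1 and 1.15 on the MEF arrays. Dpt, dermatopontin, Vat1l and Piezo2, a mechanosensitive channel, fell (-8.22 ± 0.84, -9.15 ± 0.23 and -9.01 ± 0.47). Detected probes ran from -9.15 to -4.15 for Vat1l and from -9.01 to -3.76 for Piezo2. Not every call held under each alternative, and Il1rl1 lost its call in at least 1 (adjusted p up to 0.132).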

How the data were processed

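RNA of 3 iHep, 3 MEF and 1 hepatocyte sample was read on 1-colour Agilent arrays with probe positions on mm8. Per the file headers, the authors' scanner output came from Agilent Feature Extraction 9.5.1.1, which subtracted background and detrended each processed intensity. The deposited intensities were not normalized between arrays, and the deposited detection and saturation flags (other values, 0 or 1) were used as given. Here log2 of the processed intensity minus the array's 75th percentile was used for 41138 of 41174 probes, spots of a probe were averaged, and the brightest probe stood for a gene. Changes and folds are those of that probe, and other detected probes of a gene could differ in size. Names came from accessions in RefSeq (24358), its symbols (6292) or synonyms (2422), or the scanner files (7805), and 261 had none. Genes not detected on every array of at least 1 group were left out. MEF 2 and MEF 3 were averaged, and limma 3.58.1 in R 4.3.3 was fitted to iHep, MEF and hepatocyte samples together, with Benjamini-Hochberg adjustment over all 19133 genes. The code was tested on simulated data. Where 1 group was not well above background, the fold is a bound against the array's lowest detected level, computed from means of log2 values, and likewise where the brighter group was saturated.

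Genes were named by 1 rule. In each of 48 lists it takes up to 2 called genes with the largest rise, up to 2 with the largest fall and the brightest gene not called, and over all genes the 10 largest rises and falls detected on all 6 arrays and the 10 brightest detected in 1 group only. The added factors and all cell type markers with a probe were named too. Some genes that the rule takes are not reported here. The members, lists and rule were chosen with earlier results of these data known. Alternatives covered the MEF averaging, normalization, background, filter, probe choice, slide, replicate numbers and leaving out each array. The hepatocyte array has no replicate and no comparison with it is made here. Replicate numbers were checked for pairing, and deviations of samples with the same number correlated between -0.02 and 0.03.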

Additional observations from a re-analysis of the deposited data

How the results depend on the processing

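Of 15 alternatives, none turned the direction of any of the 4458 called genes it tested except the mean of a gene's probes, under which 3 genes called higher and 11 called lower changed sign. Counts moved by over 1.5 times in these cases. With 3 separate MEF samples 7306 genes were called, 3158 higher and 4148 lower. With the slide as a block 1668 were called, 752 higher and 916 lower, and 291 list members. Leaving out 1 array gave 1638 to 4647 calls, 682 to 2093 higher and 956 to 2554 lower, and 292 to 622 list members. It gave 888 to 1506 genes detected in 1 group only, of which 562 to 1185 were in MEF, and 318 to 396 in iHep cells. The lowest counts of calls and the highest of MEF-only genes came without MEF 1, where 1 MEF sample is assumed to vary like the other groups. The replicate block with 3 separate MEF samples called 2367 genes higher and 3081 lower, and the numbers were not taken to pair samples. Of 208 called genes named here, 75 were lost with the slide as a block, 75 without MEF 1, 30 without iHep 1, 21 with normexp background and 10 with no filter on dim probes. Of genes called higher, 80.8% stayed called with normexp background and 76.1% with no filter, and of those called lower 87.1% and 76.5%. Medians of 43 of the 48 lists kept their sign but many moved by over 1.5 times, as for plasma carriers (2.23 to 5.57) and clotting genes (0.36 to 4.73, the highest with the filter on MEF and iHep arrays only, which tests fewer members).

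Genes that were not called changed sign as follows, and the cause was not tested. With the mean of a gene's probes the log2 change was 0.09 for B2m, 0.09 for Dcn and 0.16 for Slc3a2. With the slide as a block the log2 change was 0.04 for Klf2, -0.19 for Pecam1, -0.03 for Srebf1, 0.54 for Foxa2 and -0.36 for Lrat. With 3 separate MEF samples the log2 change was 0.14 for Lck and 0.00 for Slc3a2. With quantile normalization the log2 change was 0.04 for Lck, 0.05 for Myo1d, -0.00 for Rplp1, 0.03 for Slc3a2 and -0.03 for Lrat. With normexp background and quantile normalization the log2 change was 0.03 for Lck, 0.47 for Foxa2, -0.07 for Foxa3 and -0.08 for Lrat. With the authors' deposited table the log2 change was 0.04 for Lck, 0.05 for Myo1d, -0.00 for Rplp1, 0.03 for Slc3a2 and -0.03 for Lrat. With the replicate block with 3 separate MEF samples the log2 change was 0.14 for Lck and 0.00 for Slc3a2. Leaving out 1 array gave changes from -0.60 to 0.20 for B2m, -0.65 to 0.20 for Cdh5, -0.13 to 0.44 for Cebpb, -0.00 to 0.30 for Cox6a1, -0.57 to 0.37 for Dcn, -0.41 to 0.07 for Egfl7, -0.64 to 0.65 for Fga, -0.88 to 1.66 for Foxa1, -2.94 to 0.75 for Foxa2, -0.08 to 0.29 for Krt10, -0.19 to 0.48 for Lck, -0.12 to 0.07 for Myo1d, -0.58 to 0.64 for Nes, -0.34 to 0.06 for Phlda3, -0.16 to 0.10 for Slc3a2 and -0.02 to 0.10 for Srebf1.

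Arrays limit precision by their number, and levels near background carry no order.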

Other observations

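These values were chosen after they were seen. Xist, the RNA that silences an X chromosome in female cells, stood at -7.97, -8.30 and 3.42 on iHep arrays 1, 2 and 3, against 1.26, 1.78 and 1.87 on the MEF arrays, and was detected in iHep 3 alone among the iHep types. The Y-linked gene Ddx3y stood at -0.81, 0.79 and -2.50 on the iHep arrays, against 0.06, -0.45 and -0.40 on the MEF arrays, and Eif2s3y at 0.19, 1.55 and -1.97, against 0.64, 0.28 and 0.23. Both kinds of gene were therefore detected on each MEF array, and iHep 3 had the highest Xist level and the lowest levels of both Y-linked genes of the 6 arrays.

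Genes of chromosome 4 sat lower in iHep cells than genes of most other chromosomes. Over 928 genes detected on all 6 arrays, their median relative to all such genes was -0.18, -0.27 and -0.09 in iHep 1, 2 and 3. The other 19 chromosomes lay between -0.09 and 0.11 in iHep 1, between -0.1 and 0.13 in iHep 2 and between -0.13 and 0.09 in iHep 3, so chromosome 4 was outside that range in iHep 1 and iHep 2 only. Of its genes 6.14% were called higher and 14.5% lower, against 9.17% and 11.7% of all other genes detected on all 6 arrays, without a test. Those other genes include some without a chromosome position.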
